A study of Mus musculus with 4 samples.

Results

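The ADAM and ADAMTS metalloprotease genes are described here in adult mouse testis with and without Fam46c. Members were taken by symbol, as every gene named Adam or Adamts followed by a number, which gave 51 of the 22552 symbols in the tables. Of these, 32 are ADAM genes and 19 are ADAMTS genes, and no member symbol stood on more than 1 row. RNA came from whole testes of adult males on a DBA/C57 F1 background, from wild-type (WT) mice in 2 libraries and from Fam46c knockout (Fam46c KO) mice in 2 libraries. FAM46C lengthens the adenosine tails of RNAs as a noncanonical poly(A) polymerase, and the comparison asks which testis transcripts differ in its absence. The sources used here give neither the part of the gene that the knockout removes nor whether each library is a separate animal. The spread between libraries that p-values measure may therefore be purely technical. Levels are in FPKM, in which fragments are scaled to transcript length and to library size, and can therefore be compared between genes per unit of length.

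ADAM proteins are membrane-anchored and are built from a prodomain, a metalloprotease domain, a disintegrin domain that can bind integrins, a cysteine-rich domain, a transmembrane segment and a short tail. In most tissues they act as sheddases, which cut the outer part of ligands, receptors and adhesion proteins from the cell surface. In mouse germ cells a separate set is made, and several of its members act on the sperm surface, where they are needed for passage into the oviduct and for binding to the zona pellucida of the egg rather than for proteolysis. ADAMTS proteins are secreted, carry thrombospondin-type repeats and cut matrix proteins such as proteoglycans and procollagens.

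The members differed in whether their proteins keep the zinc-binding site of the metalloprotease domain. It was taken here as a motif of 3 histidines and a glutamate within 11 residues. A site was counted as incomplete where any of these 4 residues differed, also where only the glutamate did. The site was searched in the translated coding sequence of 1 GENCODE M21 transcript per gene (GRCm38). All 19 ADAMTS genes and 19 of the 32 ADAM genes had it, and 13 ADAM genes did not. The coding bases of the site are shown for the members on which this contrast rests, 5′ to 3′, with the codons of the 3 histidines and the glutamate in capitals and all other bases in lower case. Where a protein lacked the site, the bases are those aligned to residues 342 to 352 of Adam24.
Adam24: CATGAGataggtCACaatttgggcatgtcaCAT
Adam1b: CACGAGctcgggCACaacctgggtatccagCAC
Adam30: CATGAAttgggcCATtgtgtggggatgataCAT
Adam10: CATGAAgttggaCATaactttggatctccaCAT
Adam29: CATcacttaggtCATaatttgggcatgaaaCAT
Adam4: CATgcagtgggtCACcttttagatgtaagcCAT
Adam6a: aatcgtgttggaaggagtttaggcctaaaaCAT
Adam6b: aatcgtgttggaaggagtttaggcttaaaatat
Adam3: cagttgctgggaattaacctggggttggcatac
Adam5: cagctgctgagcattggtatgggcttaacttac
Adam32: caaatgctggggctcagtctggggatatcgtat
Adam2: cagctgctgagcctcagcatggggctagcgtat
Adam18: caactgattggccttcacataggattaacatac
Adam29 and Adam4 kept the 3 histidines and lacked the glutamate, Adam6a kept 1 of the 4 residues, and Adam6b, Adam3, Adam5, Adam32, Adam2 and Adam18 kept 0 of them.

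The ADAM genes were also grouped by gene structure in the same annotation. In 14 of the 32 the coding sequence lay in 1 exon, and 10 of these 14 kept the zinc-binding site. The 14 single-exon genes were all listed at a WT mean of 5.76 FPKM or more, with a highest value of 82.4 FPKM (Adam1a). Single-exon relatives that the symbol rule left out did not all reach that level. Gm5346, which keeps the site, had a WT mean of 2.71 FPKM, 4930529F22Rik one of 29.3 FPKM and Gm4787 one of 72.1 FPKM. The other 18 had several coding exons. Of these, the 9 that kept the site, which include the sheddases of somatic cells, reached at most 5.75 FPKM (Adam10). The 9 with an incomplete site held both the highest members, Adam3 and Adam5, and members below 3 FPKM, which are the nervous system proteins Adam11, Adam22 and Adam23 and the epididymal Adam7.

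**Figure D1:**
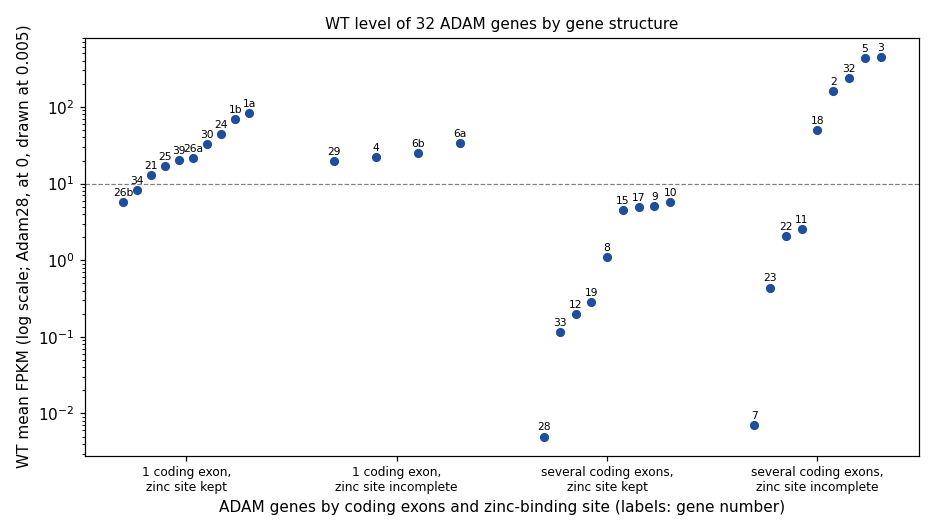
WT mean FPKM (log axis) of the 32 ADAM genes, grouped by the number of coding exons and by whether the zinc-binding site is kept. Each point is a gene, labelled by its number, and the dashed line marks 10 FPKM. Adam28, with a WT mean of 0, is drawn at the lower edge. The sperm genes Adam3, Adam5, Adam32, Adam2 and Adam18 stand at the top of the group with several coding exons and an incomplete site.

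The members were separated at a WT mean of 10 FPKM, which left 17 above and 34 below. Just inside stood Adam21 at 12.8 FPKM and just outside Adam34 at 8.2 FPKM. All 17 are ADAM genes known from sperm or testis, and they are called testis-high here. With only testis measured, the name describes their level and not their restriction to this tissue. The germ cell genes Adam34 and Adam26b fell below the line, next to the widely expressed Adam10, so a level alone did not divide germ cell from somatic members there. The 51 members summed to 1787 and 1782 FPKM in WT, against 1844 and 1809 FPKM in KO, with replicate 1 before replicate 2 here and throughout. This was 0.349% to 0.369% of all FPKM in a library. Testis-high members took 97.1% to 97.6% of that sum, Adam3, Adam5 and Adam32 alone 61.9% to 64.9%, and the 19 ADAMTS genes together 7.39 to 7.79 FPKM.

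The targeted transcript, Fam46c, was listed at 236 and 134 FPKM for WT, against 131 and 130 FPKM for KO (limma log2 fold change -0.45 with an SE of 0.21, adjusted p = 1). It was therefore not called lower in the KO libraries, and it does not check the labels, because the mutated part is not known. Whole steps in the low FPKM values, read with GENCODE M21 transcript lengths, put the depth of WT replicate 2 at roughly 23300000 fragments, that of WT replicate 1 at 0.901 of it and those of the KO libraries at 0.781 and 0.905 of it. At this depth a testis-high member would hold about 660 or more fragments in each library, a counting error of at most 3.88%, and Adam3 about 22000 or more. The highest and the lowest library of a testis-high member stood 1.05-fold (Adam1a) to 1.56-fold (Adam6a) apart. Markers of spermatids were present in every library, with sums from 47268 to 68164 FPKM over 8 genes, and those of spermatocytes with sums from 347 to 390 FPKM over 5 genes. Leydig cell markers summed to 1280 and 1394 FPKM in WT, against 636 and 309 FPKM in KO, of which Insl3 made up most, and red blood cell markers to 50.6 and 40.7 FPKM in WT and 12.6 and 7.48 FPKM in KO. Of the 4 tested red blood cell markers, the 3 globin genes had both KO libraries below both WT libraries. Alas2 of the same list overlapped, at 9.03 and 7.62 FPKM in WT, against 9.61 and 5.5 FPKM in KO. In bulk RNA, fewer cells of a type and less RNA per cell cannot be told apart.

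No ADAM or ADAMTS gene was called different between Fam46c KO and WT testes. Testing ran on log2(FPKM + 1) with limma over the 12258 genes that averaged 1 FPKM or more, which included 27 members, all 17 testis-high and 10 lower ones. Of the 27, 0 passed at a limma adjusted p under 0.05 and 0 had an unadjusted p under 0.05. Among all tested genes 14 passed (0.114%) and 248 (2.02%) had an unadjusted p under 0.05, so a count of 0 among 27 is near the background. Log2 fold changes of the tested members lay between -0.27 and 0.17, on a scale that understates the change of low genes. The 95% intervals of the 17 testis-high members together spanned folds of FPKM + 1 from 0.707 to 1.47. These intervals were computed gene by gene, without adjustment for the 12258 genes tested. Calling used the adjusted p, which is stricter, so changes of this size and also larger ones could go uncalled with 2 libraries a group. The median log2 fold change of the testis-high members was 0.03, against -0.01 over all tested genes.

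**Figure D2:**
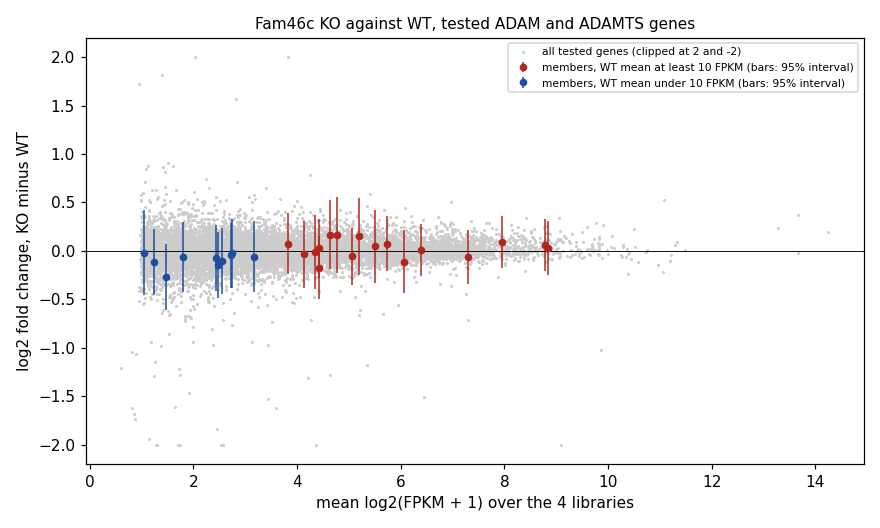
Log2 fold change of KO minus WT (y axis) against the mean log2(FPKM + 1) over the 4 libraries (x axis) for all tested genes (grey, clipped at 2 and -2) and for the 27 tested members, with 95% intervals as bars. Every member's interval includes 0.

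Adam3, Adam5, Adam32 and Adam2, which encode proteins of the sperm surface, held the 4 highest levels, and none of them was called. Adam3, the member on which passage into the oviduct and zona binding depend, was at 436 and 469 FPKM in WT, against 478 and 445 FPKM in KO (limma log2 fold change 0.03 with an SE of 0.13, adjusted p = 1). Its groups overlapped. Adam2, or fertilin beta, which pairs with an ADAM1 protein and is required for ADAM3 to reach the sperm surface, was at 166 and 156 FPKM in WT, against 162 and 145 FPKM in KO (log2 fold change -0.06). The 2 ADAM1 genes encode the alternative partners of ADAM2: Adam1a acts in a complex of the testis that stays in the endoplasmic reticulum, and Adam1b in fertilin on sperm. Adam1a stood at 82.9 and 81.9 FPKM in WT, against 81.1 and 85.0 FPKM in KO, a range of 1.05-fold over the 4 libraries. Adam1b stood at 69.5 and 68.1 FPKM in WT, against 72.7 and 55.2 FPKM in KO, with KO replicate 2 alone low. Their transcripts share sequence, 48.7% of the 100-base windows of Adam1a and 30.3% of those of Adam1b also lying in another gene's transcript, so the division of fragments between them is uncertain. Their sum was 152 and 150 FPKM in WT and 154 and 140 FPKM in KO.

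Adam5, Adam32 and Adam18 encode further sperm surface proteins without a zinc-binding site, and they neighbour Adam3 on chromosome 8 in GRCm38.p6. Adam5 was at 432 FPKM in either WT library, against 459 and 443 FPKM in KO (limma log2 fold change 0.06 with an SE of 0.12, adjusted p = 1). Adam32 was at 237 and 242 FPKM in WT, against 259 and 252 FPKM in KO (limma log2 fold change 0.09 with an SE of 0.12, adjusted p = 1). For these 2 genes both KO libraries lay above both WT libraries, as they did for 9.47% of all tested genes. Adam18 was at 49.2 and 52.0 FPKM in WT, against 56.8 and 49.9 FPKM in KO, and its groups overlapped. KO replicate 1, the library with the highest sum of spermatid markers, held the highest value of Adam3, Adam5, Adam32 and Adam18. Most of that sum was Prm1 (23903 FPKM) and Tnp1 (16320 FPKM), both highest in KO replicate 1. Tnp2 was highest in WT replicate 2, and Odf1 was lower in KO replicate 1 (1322 FPKM) than in WT (1514 and 1393 FPKM). Whether the spermatid content had a part in the values of these ADAM genes was not tested. After scaling by total FPKM, which was highest in KO replicate 1, the median log2 fold change of all testis-high members was -0.002. With that scaling Adam5 was at 0.03, Adam32 at 0.061, Adam18 at 0.041 and Adam3 at -0.004.

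**Figure D3:**
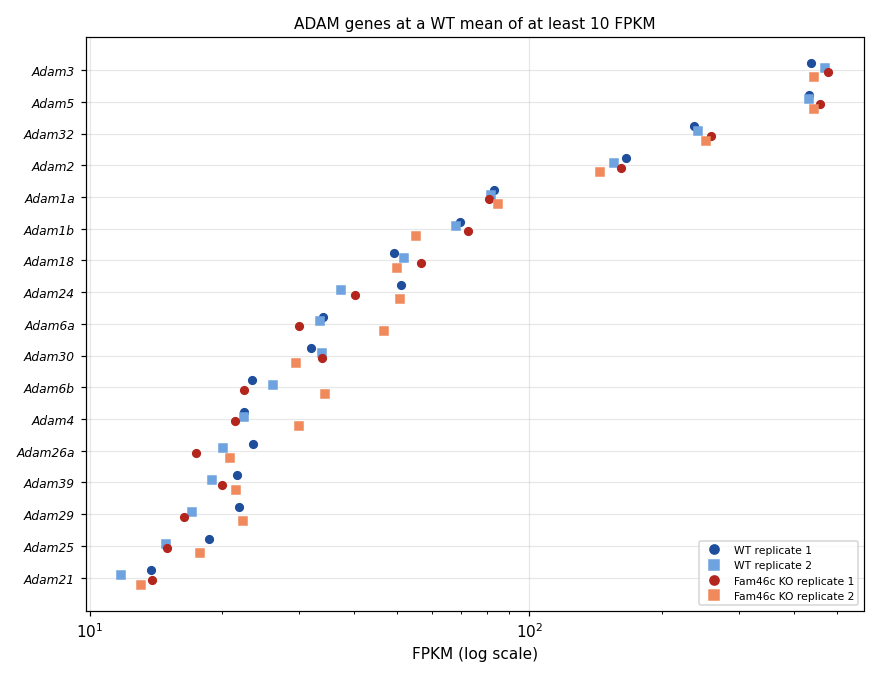
FPKM (log axis) of the 17 testis-high ADAM genes in each library, ordered by WT mean. Blue symbols are the 2 WT and red or orange symbols the 2 Fam46c KO libraries. The symbols of Adam3, Adam5 and Adam32 lie close together, and the orange squares of Adam6a, Adam6b and Adam4 stand to the right of the other 3 libraries.

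The single-exon testis genes that keep the zinc-binding site include Adam24, Adam25, Adam26a and Adam39, which belong to the testase group of mouse chromosome 8. Adam24, whose protein is found on mature sperm, was at 51.2 and 37.3 FPKM in WT, against 40.2 and 50.9 FPKM in KO (limma log2 fold change 0.05 with an SE of 0.17, adjusted p = 1). Adam25 was at 18.7 and 14.9 FPKM in WT, against 15.0 and 17.8 FPKM in KO. In both genes WT replicate 1 and KO replicate 2 were the higher libraries of their groups, and the groups overlapped. Adam26a was at 23.5 and 20.1 FPKM in WT, against 17.5 and 20.9 FPKM in KO, the lowest log2 fold change among the testis-high members at -0.18 (SE 0.15, limma adjusted p = 1). Adam39 lay between 19.0 and 21.7 FPKM over the 4 libraries. Outside the testase group, Adam30 on chromosome 3 was at 31.9 and 33.8 FPKM in WT, against 33.8 and 29.5 FPKM in KO. Adam21 on chromosome 12 was at 13.8 and 11.8 FPKM in WT, against 13.9 and 13.1 FPKM in KO. Neither separated the genotypes.

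Several of these genes are near copies, which limits what a single value means. Coding sequences were 95.6% identical between Adam25 and Adam39, 94.6% between Adam6a and Adam6b and 94.1% between Adam26a and Adam26b. Shared 100-base windows made up 16.3% of the Adam25, 16.4% of the Adam39, 17.2% of the Adam26a and 14.9% of the Adam26b transcript. The table also listed relatives under other names: 4930529F22Rik is Adam20 and Gm5346 is Adam34l in GRCm38.p6, and Gm4787 has the synonym Adam4b there. Summed over Adam25, Adam39 and 4930529F22Rik, levels were 73.9 and 59.2 FPKM in WT and 60.6 and 69.4 FPKM in KO. Summed over Adam26a, Adam26b, Adam34 and Gm5346, they were 42.0 and 34.9 FPKM in WT and 31.7 and 37.7 FPKM in KO. In both sums WT replicate 1 and KO replicate 2 were the higher libraries of their groups, as in each member added except Adam26b, which was at 5.58 FPKM in KO replicate 1 and 5.50 FPKM in KO replicate 2.

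The single-exon members with an incomplete zinc-binding site are Adam29, Adam4, Adam6a and Adam6b. Adam29, a testis gene of chromosome 8, was at 21.9 and 17.1 FPKM in WT, against 16.4 and 22.3 FPKM in KO. Adam4 was at 22.5 and 22.4 FPKM in WT, against 21.4 and 29.9 FPKM in KO (limma log2 fold change 0.17 with an SE of 0.16, adjusted p = 1). Adam6a was at 33.9 and 33.4 FPKM in WT, against 29.9 and 46.8 FPKM in KO (limma log2 fold change 0.15 with an SE of 0.18, adjusted p = 1). Both Adam6 genes lie in the immunoglobulin heavy chain locus, and mice without them have impaired male fertility. The copy Adam6b was at 23.4 and 26.2 FPKM in WT, against 22.5 and 34.3 FPKM in KO. In these 3 genes KO replicate 2 was the highest and KO replicate 1 the lowest library, so the positive fold change rested on 1 library. Without KO replicate 2 the log2 fold change was -0.067 for Adam4, -0.164 for Adam6a and -0.131 for Adam6b. Without KO replicate 1, the unadjusted p was under 0.05 for 4 members, Adam4, Adam6a and Adam6b with higher and Adam1b with lower KO values, and the lowest limma adjusted p among the 27 was 0.606.

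KO replicate 2 was also highest in sums of near copies. For Adam6a with Adam6b and for Adam4 with Gm4787 this follows from the single values and adds no support. Adam6a and Adam6b summed to 57.3 and 59.6 FPKM in WT, against 52.4 and 81.1 FPKM in KO. Adam4 and Gm4787, which neighbour each other on chromosome 12, summed to 93.5 and 95.6 FPKM in WT, against 89.4 and 125 FPKM in KO. Most of that sum was Gm4787, at 71.0 and 73.2 FPKM in WT, against 68.0 and 95.1 FPKM in KO. On the log2(FPKM + 1) scale, KO replicate 2 stood above the mean of the 4 libraries by 0.39 for Adam6a, 0.37 for Adam6b and 0.32 for Adam4. Over the 16 tested genes flanking Adam6b and Adam6a, the deviation of KO replicate 2 had a median of 0.01 and a highest value of 0.21. Over the 20 flanking Adam4, Gm4787 and Adam21 the median was -0.02 and the highest value 0.21. Adam21 itself deviated by 0.00 there.

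On chromosome 8, the medians of 2 clusters of single-exon genes were highest in WT replicate 1. Over Adam24, Adam25, 4930529F22Rik and Adam39 the WT libraries deviated by a median of 0.18 and -0.15, and the KO libraries by -0.14 and 0.09. For the 20 tested genes flanking that cluster the same medians were 0.07, -0.03, -0.08 and 0.09, with the same signs and, except in KO replicate 2, smaller sizes. Over Adam26b, Adam26a, Gm5346 and Adam34 the medians were 0.18, -0.07, -0.20 and 0.05, and over their 20 flanking genes 0.08, -0.04, -0.05 and 0.07. Of the 12 single-exon testis-high genes, 8 were higher in WT replicate 1 than in 2 and also higher in KO replicate 2 than in 1, against 0 of the 5 with several coding exons and 31.0% of all tested genes. This count was made after the values were seen. Among the 8, the WT libraries were nearly equal for Adam1a (82.9 and 81.9 FPKM), Adam4 (22.5 and 22.4 FPKM) and Adam6a (33.9 and 33.4 FPKM). The others, Adam24, Adam25, Adam39, Adam26a and Adam29, all lie on chromosome 8, and Adam25 and Adam39 are near copies. The 8 are therefore not separate observations. Spermatocyte markers summed to 390 and 347 FPKM in WT, against 356 and 386 FPKM in KO, the same order as those 8 genes. Spermatid markers summed to 47268 and 61606 FPKM in WT, against 68164 and 54910 FPKM in KO, the opposite order. Neither sum stood for every marker. Sycp1, Piwil1 and Dmc1 followed the spermatocyte sum, and Piwil1, at 94.7 and 136 FPKM in KO, set its KO order. Hormad1 was at 32.4 and 31.4 FPKM in KO. Sycp3, the highest of these markers in WT, was likewise lower in KO replicate 2 than in KO replicate 1. Tnp1, Tnp2 and Prm1 followed the spermatid sum, but Odf1 was at 1514 and 1393 FPKM in WT. The part of germ cell content in the members' order was not tested.

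**Figure D4:**
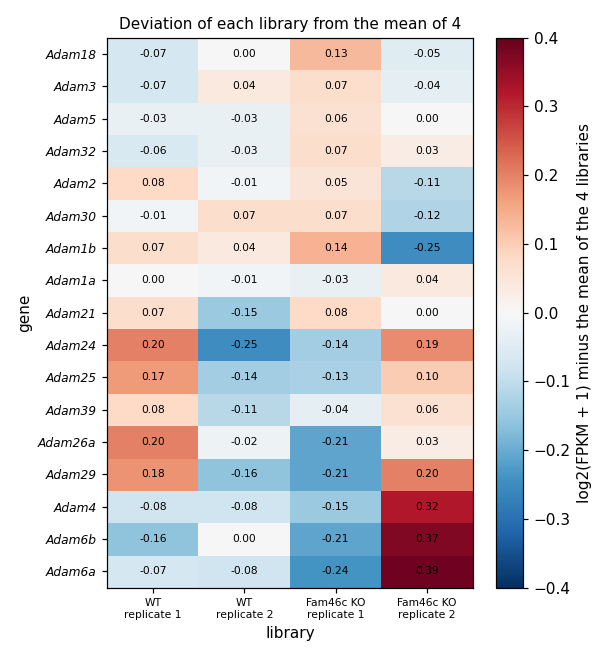
Deviation of each library from the mean of the 4 on the log2(FPKM + 1) scale for the 17 testis-high genes (rows), as numbers and colours. The lowest 3 rows, Adam4, Adam6b and Adam6a, are highest in KO replicate 2, and Adam24, Adam25, Adam39, Adam26a and Adam29 are higher in WT replicate 1 than in WT replicate 2.

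The spread between replicates exceeded the difference between genotypes in most testis-high genes. The median absolute log2 difference was 0.089 between the WT libraries and 0.189 between the KO libraries, against 0.064 between the group means. In 2 of the 17, the group means differed by more than both replicate pairs did (11.8%, and 11.8% of all tested genes as well).

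The widely expressed sheddases stood far lower. Adam10, which cuts Notch receptors and cadherins, was at 6.46 and 5.04 FPKM in WT, against 5.58 and 5.6 FPKM in KO (limma log2 fold change -0.03 with an SE of 0.16, adjusted p = 1). Adam17, which releases tumour necrosis factor and ligands of the epidermal growth factor receptor, was at 5.24 and 4.52 FPKM in WT, against 4.14 and 4.43 FPKM in KO (limma log2 fold change -0.15 with an SE of 0.16, adjusted p = 1). Both KO libraries lay below both WT libraries for Adam17, by less than the WT libraries differed from each other. Adam9, a neighbour of Adam32, was at 5.47 and 4.75 FPKM in WT, against 5.03 and 4.34 FPKM in KO, and Adam15, an adhesion protein of vessels and epithelia, at 4.65 and 4.37 FPKM in WT, against 3.90 and 4.61 FPKM in KO. The germ cell gene Adam26b lay between 5.34 and 6.19 FPKM over the 4 libraries, within the range of Adam10 and above all values of Adam15. Adam8, a protein of leukocytes, was at 1.53 and 0.697 FPKM in WT, against 0.949 and 1.15 FPKM in KO. Adam12, Adam19 and Adam33 had WT means of 0.196, 0.281 and 0.116 FPKM and were not tested.

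Adam34, the germ cell gene just under the line, was at 9.04 and 7.37 FPKM in WT, against 6.86 and 8.81 FPKM in KO. Adam11, a non-catalytic neuronal protein, was at 2.35 and 2.80 FPKM in WT, against 2.19 and 2.66 FPKM in KO. Adam22, the receptor of LGI proteins at synapses, was at 2.01 and 2.09 FPKM in WT, against 1.55 and 1.52 FPKM in KO. It had the lowest log2 fold change of the tested members at -0.27 (SE 0.16, 95% interval -0.61 to 0.07, limma adjusted p = 1), with groups that did not overlap. At about 73 fragments in its lowest library, the counting error of Adam22 was 11.7%. Of the 10 tested lower members 3, Adam17, Adam22 and Adamts17, had both KO libraries below both WT libraries, against 10.6% of all tested genes. All 10 had a negative log2 fold change (median -0.07), against 53.3% of the tested genes with a WT mean under 10 FPKM, and the largest in size was that of Adam22. With 1 library left out, 6 of them turned positive: Adam10, Adam34, Adam26b and Adam8 without WT replicate 1, Adam11 without WT replicate 2, and Adam34, Adam15, Adam11 and Adam8 without KO replicate 1. Adam22 stayed between -0.288 and -0.248. The 8 somatic sheddases summed to 24.0 FPKM in WT replicate 1 and to at most 20.9 FPKM in each of the other 3 libraries. Sertoli cell markers summed to 625 FPKM in WT replicate 1 and to 478 to 523 FPKM in the others. Clu made up most of these sums, at 537 FPKM in WT replicate 1 and 413 to 450 FPKM in the others. Gata4 was also highest in WT replicate 1, while Amh and Trf were not. The sum of Leydig cell markers, given above and mostly Insl3, was lower in both KO libraries. Of the 7 markers, 2 had both KO libraries below both WT libraries. Hsd17b3, at 16.7 and 18.6 FPKM in WT against 18.5 and 8.02 FPKM in KO, overlapped between the groups, as did Star. The part of somatic cell content in the lower values was not tested.

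ADAMTS transcripts were scarce. The 1 tested gene, Adamts17, whose human counterpart is linked to microfibrils and short stature, was at 1.38 and 1.50 FPKM in WT, against 1.26 FPKM in either KO library (limma log2 fold change -0.11 with an SE of 0.16, adjusted p = 1). Adamts2, which removes the amino-terminal propeptide of collagens, was at 1.13 and 0.874 FPKM in WT, against 0.893 and 0.992 FPKM in KO. Adamts5, which cuts aggrecan and versican, was at 0.920 and 0.928 FPKM in WT, against 1.11 and 0.816 FPKM in KO. Both were just under the filter and overlapped between the groups. Adamts20, the gene of the belted coat colour mutation, was at 0.771 and 0.605 FPKM in WT, against 0.993 and 0.952 FPKM in KO, and Adamts10, a microfibril-associated member, at 0.637 and 0.670 FPKM in WT, against 0.430 and 0.692 FPKM in KO. Of the proteoglycan-cutting members Adamts1, Adamts4 and Adamts9, WT means were 0.360, 0.132 and 0.595 FPKM and KO means 0.352, 0.0785 and 0.578 FPKM. Adamts13, which cuts von Willebrand factor in plasma, was listed at 0 in all 4 libraries. The other ADAMTS genes had WT means from 0.0234 FPKM (Adamts18) to 0.420 FPKM (Adamts19), at which a library would hold from about 2.3 to about 65 fragments.

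Epididymal members were nearly undetected. Adam7, a surface protein of the epididymal duct, was listed at 0.0142 FPKM in WT replicate 1 and at 0 in the other 3 libraries. Adam28, also of the epididymal duct and of lymphocytes, was at 0.0221 FPKM in KO replicate 1 and at 0 elsewhere. Each value corresponds to about 1 fragment. Of 8 other genes listed as epididymal markers, 3 were at 0 in every library, and Cst8 made up nearly all of a sum of 372 to 478 FPKM. That sum therefore does not stand for the list. Spink8 lay between 0.625 and 1.74 FPKM and Rnase10 between 1.99 and 3.75 FPKM.

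**Figure D5:**
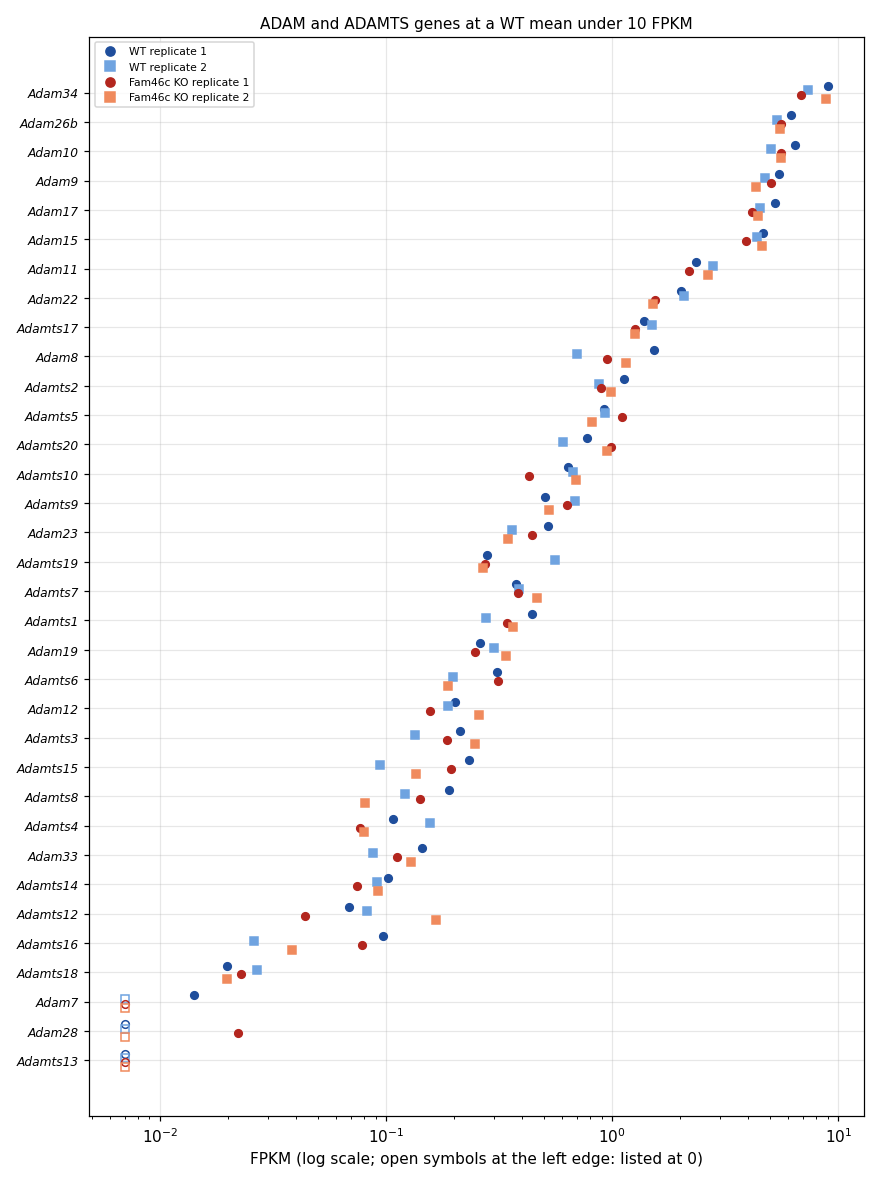
FPKM (log axis) in each library of the 34 members with a WT mean under 10 FPKM, ordered by WT mean, with open symbols at the left edge for values listed at 0. Adam34, Adam26b, Adam10, Adam9, Adam17 and Adam15 lie between 3.9 and 9.04 FPKM at the top, and ADAMTS genes fill the lower part with wider spread between libraries.

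Genes that act with the family were read from lists of chaperones, regulators and substrates. Of 14 genes for the folding, processing and sorting of sperm ADAMs, 12 were in the table, 11 were tested and 0 were called (median log2 fold change -0.00, against -0.01 over all tested genes). Calr3, a testis calreticulin that acts on ADAM3, was at 61.1 and 71.2 FPKM in WT, against 62.3 and 96.9 FPKM in KO, and Prss37, a protease homologue needed for ADAM3 maturation, at 131 and 182 FPKM in WT, against 143 and 221 FPKM in KO. Both were highest in KO replicate 2. Ly6k, a surface partner of ADAM3, had a log2 fold change of -0.13 and Cmtm2b one of 0.11. Among 11 tested regulators of sheddases, 0 were called, with the inhibitor Reck at -0.13, the convertase Furin at -0.12, and the tetraspanins Tspan33 at 0.07 and Tspan17 at -0.06. The 9 tested ADAMTS-like proteins and matrix substrates also gave 0 calls (median -0.04). Their procollagens Col1a2, Col1a1 and Col3a1 had log2 fold changes of -0.40, -0.35 and -0.36 and were highest in WT replicate 1, as Col1a2 shows with 7.02 and 4.04 FPKM in WT and 4.13 and 3.52 FPKM in KO. The proteoglycan Ncan was at 0.13. Of 8 tested sheddase substrates, 0 were called (median -0.12), with Tnfrsf1a at -0.18, Tgfa at -0.15, Jag1 at -0.14 and App at -0.12. Of 14 matrix metalloproteases and astacins, only Mmp14 and Mmp11 were tested, at -0.20 and 0.03, and 0 were called.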

How the data were processed

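RNA of 4 testis libraries was measured, and the deposited values are FPKM in 1 table per library, per the file headers. The submitters' processing notes name the mm9 build, Cuffdiff, Cufflinks 2.0.2 and TopHat2 2.0.6, with no role or order. Annotation, strand setting and the treatment of multi-mapped fragments were not given in the sources used here, and values of near-identical copies are therefore uncertain. FPKM of repeated symbols were summed. KO was compared with WT with limma 3.58.1 under R 4.3.3 on log2(FPKM + 1) for genes with a mean of at least 1 FPKM, with an intensity trend, 2 residual and 9.48 prior degrees of freedom and Benjamini-Hochberg adjustment over all 12258 genes; the fit was checked on simulated data. The members, the lists and the line at 10 FPKM were chosen with earlier results of these data known. Named were all members at or above that line, the 6 highest tested ones below it, listed sheddases and ADAMTS genes, and up to 4 genes of smallest p per list; other members were named after their values were seen. Depth was estimated from genes with 1 GENCODE M21 transcript of over 1000 bases, with 200 bases taken off each length, and is rough; counting errors cover counting only. For each locus the 10 nearest tested genes on each side were taken where present. Coding sequences were read with Biopython 1.88. Of the tested genes, 1 had exactly equal deposited FPKM in the WT libraries and 4 in the KO libraries.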

Additional observations from a re-analysis of the deposited data

How the results depend on the processing

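Members called by limma numbered 0 under each of the 14 alternatives. The count over all genes, 14 in the reported fit, was 9 with a mean of at least 5 FPKM, 2 with no filter, 6 with median scaling, 7 with total scaling, 6 with quantile normalization, 8 with robust variance and 9 to 20 with 1 library left out. A fit with the replicate number as a block called 68 genes and 0 members. The labels do not say that the numbers pair libraries, and across genes the differences between replicates of WT and of KO correlated at -0.0254. The median log2 fold change was -0.022 to 0.077 for testis-high members and -0.184 to -0.026 for lower ones with 1 library left out. It was 0.011 and 0.038 for testis-high members with the line at 5 or 20 FPKM. Leaving out members with repeated symbols was not run, since there are none.

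Of 371 values of the 27 tested members under the alternatives, 336 kept their direction and 0 were called. Signs turned for Adam1a (-0.021), Adam3 (-0.004) and Adam39 (-0.002) with total scaling, for Adam1a (-0.007), Adam3 (-0.029) and Adam8 (0.015) with quantile normalization, and for Adam8 with a pseudocount of 0.1 (0.005). With 1 library left out, log2 fold changes crossed 0 in 20 members. They ranged from -0.018 to 0.164 for Adam18, -0.023 to 0.044 for Adam1a, -0.312 to 0.079 for Adam1b, -0.142 to 0.014 for Adam2, -0.032 to 0.183 for Adam21, -0.174 to 0.271 for Adam24, -0.187 to 0.119 for Adam25, -0.222 to 0.195 for Adam29, -0.024 to 0.081 for Adam3 and -0.151 to 0.038 for Adam30. The ranges were -0.064 to 0.119 for Adam39, -0.067 to 0.398 for Adam4, -0.164 to 0.464 for Adam6a, -0.131 to 0.455 for Adam6b, -0.221 to 0.098 for Adam34, -0.136 to 0.045 for Adam26b, -0.179 to 0.126 for Adam10, -0.168 to 0.026 for Adam15, -0.163 to 0.038 for Adam11 and -0.307 to 0.27 for Adam8. The cause was not tested beyond the library named. With 1 library in a group, it is assumed to vary like the other group. Depth limits members under 1 FPKM most. Counting errors in their lowest library were 7.39% to 66.2% for those with at least 1 fragment in every library.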
